A study of Mus musculus with 8 samples.

Results

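Macrophages are often described along a range from M1 to M2. M1 macrophages, which form under LPS and IFN-γ, release inflammatory cytokines and make nitric oxide from arginine, whereas M2 macrophages, which form under IL-4 or in tumours, break arginine down to ornithine and carry scavenger receptors and immunosuppressive signals. N6-methyladenosine (m6A) is a modification that the methyltransferase complex with METTL3 as its catalytic subunit places on mRNA, most often within the motif GGAC and the broader DRACH context (any base but C, then A or G, then AC, then any base but G), and that reader proteins bind to alter the stability or translation of the transcript. The genes described here are 10 effectors and markers of polarization, chosen by name among the 21951 protein-coding genes examined. *Tnf*, *Il1b* and *Il6* encode inflammatory cytokines, *Nos2* the inducible nitric oxide synthase, *Il10* and *Tgfb1* anti-inflammatory cytokines, *Arg1* arginase, *Ccl22* a chemokine that attracts regulatory T cells, *Mrc1* the mannose receptor CD206 and *Cd274* the checkpoint ligand PD-L1.

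The question was whether the transcripts of these genes carried listed m6A peaks, and where, in bone marrow-derived macrophages (BMDMs) with and without METTL3. BMDM samples of 2 WT (labelled wild type) and 2 KO (labelled Mettl3-/-) cultures were profiled by MeRIP-Seq, in which RNA fragments pulled down with an m6A antibody (IP) are sequenced beside input RNA. The donors were C57BL/6 mice of 8 weeks by the labels. In the study, WT stands for *Mettl3*fl/fl Lyz2+/+ and KO for *Mettl3*fl/fl Lyz2cre/+ mice, so that both groups carried the floxed *Mettl3* alleles. The labels do not say whether the samples of a genotype came from separate mice, so the spread between them may be technical. Cre is driven by the *Lyz2* locus, which is active in myeloid cells, and the study describes a residue of *Mettl3* mRNA in KO BMDMs. Marrow cells were grown for 7 days with 40 ng/mL M-CSF in all groups, and the labels name no LPS, IFN-γ or IL-4, so every statement below concerns unstimulated cultures. The 8 libraries (IP and input for each sample) gave 1 peak list per sample, named WT-1 and WT-2 or KO-1 and KO-2.

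The 4 lists held 6159 to 6684 peaks, of which 97.0% to 97.3% were assigned to a protein-coding gene. A list gives the position of a peak and a score from the peak caller. Read counts are not in the lists, and library depth is therefore unknown. A score was read only as a percentile, the percentage of peaks in the same list with an equal or lower score. Between 611 and 1252 peaks of a list shared the score 3100, so ranks near the top are tied. These were 9.92% of the peaks of WT-1 and 12.5% of WT-2, and 15.6% of KO-1 and 18.7% of KO-2. More peaks of the KO lists thus stood at the tied top percentile, which bears on every comparison of percentiles between genotypes below. Absence of a peak in these lists can come with little RNA as well as with little m6A, and these cannot be told apart here. *Mettl3* had 0 listed peaks, so the deleted gene does not check the genotypes. The Y chromosome had 4 peaks in WT-1 and 0 in each other list. Of the macrophage markers, 3 of 9 had a peak (33.3%, beside 32.1% of all protein-coding genes). *Mertk* had one in all 4 lists and *Fcgr1* in both WT lists and neither KO list, while *Csf1r*, *Adgre1*, *Itgam*, *Cd68*, *Lyz2* and *Spi1* had 0. A listed peak was found on 0 of 6 neutrophil markers, 1 of 7 lymphocyte markers (*Cd4*, WT lists only) and 1 of 5 dendritic cell markers. Among stromal and epithelial markers it was 2 of 5 (40%), with *Pdgfra* in 3 lists. Of all genes with a peak, 3.84% had one in both WT lists and neither KO list, as *Fcgr1* and *Cd4* did. The macrophage share lies near that of all genes, so these counts do not identify the cells. The part of other cells in the results below was not tested.

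Of the 10 genes, 4 had a listed peak in at least 1 list: *Cd274*, *Tnf*, *Mrc1* and *Tgfb1*. *Il1b*, *Il6*, *Il10*, *Nos2*, *Arg1* and *Ccl22* had no listed peak in these unstimulated cultures. The count of 4 of 10 (40%) stands beside 32.1% of all protein-coding genes with a peak in any list. *Cd274* alone had a peak in all 4 lists, 1 of 10 genes beside 9.78% of all genes. None of the 10 had a peak in both lists of one genotype and neither list of the other, calls that 3.84% (both WT lists) and 4.88% (both KO lists) of the 7055 genes with a peak received. These shares lie near the background and set the 10 genes apart in neither direction. There were 14 peaks in all, with 4 and 3 in the WT lists and 3 and 4 in the KO lists.

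**Figure D1:**
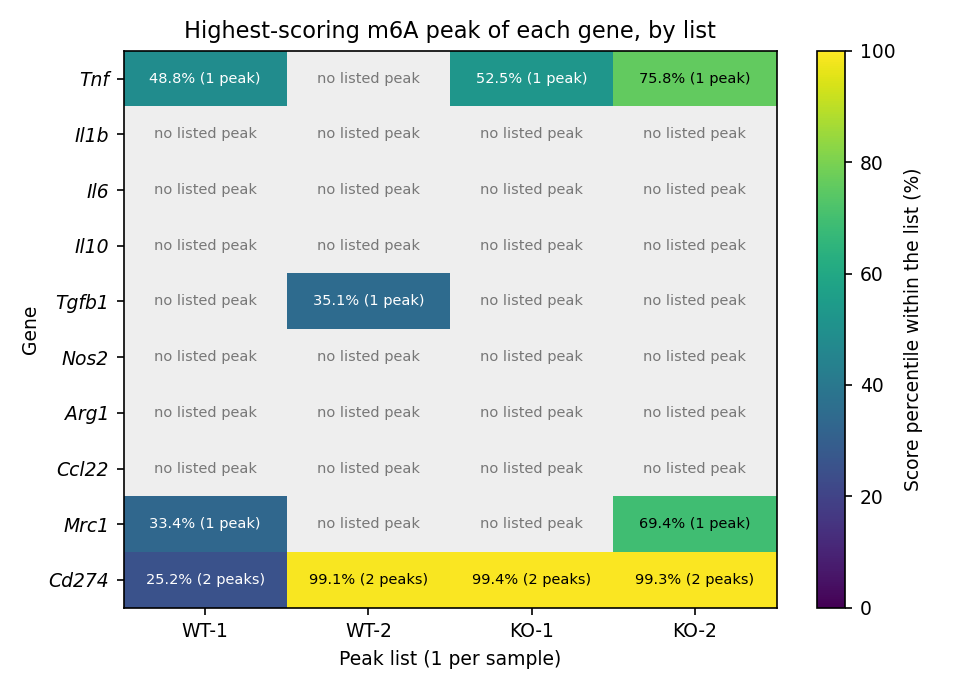
Score percentile within each list of the highest-scoring peak of the 10 genes (rows) in the 4 peak lists (columns), with the number of peaks in brackets and grey cells for no listed peak. Only *Cd274* is filled in every column, from 25.2% in WT-1 to 99.4% in KO-1, and 6 genes are empty throughout.

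The sequences under the peaks are shown here because the 4 genes differ in the motifs that they hold and in where these lie. All coordinates are GRCm38, 1-based, and all sequences are written 5′ to 3′ on the transcript strand from GENCODE M21. The peak on exon 3 of *Cd274* (plus strand) covered the whole exon of 342 bp. Its middle part, chr19:29373579-29373878, lies in the CDS and holds 6 GGAC motifs, in capitals.
Cd274 exon 3: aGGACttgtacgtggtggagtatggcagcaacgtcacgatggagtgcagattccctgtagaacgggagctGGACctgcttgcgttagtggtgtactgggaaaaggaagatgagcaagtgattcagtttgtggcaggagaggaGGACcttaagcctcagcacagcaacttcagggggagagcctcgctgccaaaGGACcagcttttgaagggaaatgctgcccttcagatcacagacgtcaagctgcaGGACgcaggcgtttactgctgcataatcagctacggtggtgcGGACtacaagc

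The other *Cd274* peak lay on exon 7, the last exon. The part present in all 4 lists holds 2 GGAC motifs, both in the 3′-UTR, which begin 63 and 140 bases past the stop codon (chr19:29385462-29385491 and chr19:29385539-29385568).
Cd274 3′-UTR site 1: gaaagggcccatgGGACatgagtccaaaga
Cd274 3′-UTR site 2: agcctggaacaacGGACattttttccaggg

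The *Tnf* peak (minus strand) lay on exon 1. It holds 2 GGAC motifs, both in the 5′-UTR, which begin 147 and 137 bases before the start codon (chr17:35201961-35201990). The coding part of the same exon, chr17:35201655-35201840, has 0 GGAC and 3 DRACH motifs, in capitals.
Tnf 5′-UTR site: cgaGGACagcaagGGACtagccaggaggga
Tnf exon 1 coding: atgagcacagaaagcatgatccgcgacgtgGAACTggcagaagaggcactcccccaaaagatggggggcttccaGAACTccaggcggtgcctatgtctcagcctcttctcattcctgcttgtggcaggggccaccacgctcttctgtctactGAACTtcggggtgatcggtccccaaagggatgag

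The *Mrc1* peak (plus strand) lay on exon 2, within the CDS, and held 0 GGAC. The central 300 bases, chr2:14238205-14238504, hold 5 DRACH motifs, in capitals, of which the first 2 overlap by a base.
Mrc1 exon 2: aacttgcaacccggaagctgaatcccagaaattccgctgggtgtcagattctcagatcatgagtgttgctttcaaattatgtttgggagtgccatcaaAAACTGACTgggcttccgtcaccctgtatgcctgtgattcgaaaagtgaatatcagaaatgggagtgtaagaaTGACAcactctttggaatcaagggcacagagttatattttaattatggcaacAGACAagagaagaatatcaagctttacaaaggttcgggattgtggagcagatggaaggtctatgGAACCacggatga

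The *Tgfb1* peak (plus strand) lay on exon 1 and held 12 GGAC motifs, 10 in the 5′-UTR and 2 in the CDS. The sites nearest to the start codon on either side begin 123 bases before it (chr7:25687733-25687762) and 84 bases after it (chr7:25687940-25687969).
Tgfb1 5′-UTR site: ctcaaattattcaGGACtatcacctacctt
Tgfb1 CDS site: gaggccagccgcgGGACtctccacctgcaa

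*Cd274* (ENSMUSG00000016496.7, chr19:29367455-29388095, 7 exons, spliced length 3622 bases) had 2 peaks in every list. PD-L1 binds PD-1 on T cells and dampens their response. The exon 3 peak had the same borders, chr19:29373558-29373899, in all 4 lists, which are those of the exon. WT-1 gave it a percentile of 25.2% (score 227.72) and WT-2 one of 76.2% (1860.64), and KO-1 gave 82.7% (2844.88) and KO-2 69.0% (1704.39). WT-1 was thus low, and the other 3 lists lay between 69.0% and 82.7%. WT BMDMs averaged 50.7 ± 36.1 and KO BMDMs 75.9 ± 9.64 (mean ± SD, n = 2 each), and the difference of 25.2 points was smaller than the spread of the WT lists (two-sided exact permutation test, p = 0.667). With 2 lists against 2, p cannot go below 0.333, so no test here could pass the usual threshold.

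The exon 7 peak of *Cd274* began at the first base of the exon in each list (position 29385390), covered the last 23 coding bases with the stop codon, and went on into the 3′-UTR. In WT-1 it was 2701 bp wide and covered 99.8% of the exon. In WT-2 it was 1331 bp wide, and the KO lists gave 604 bp (KO-1) and 608 bp (KO-2). The peak was thus wider in both WT lists than in both KO lists, and the stretch of 604 bp shared by all 4 was 22.4% of the widest. Over the whole lists the median width ran the other way, at 478 bp (WT-1), 498 bp (WT-2), 501 bp (KO-1) and 543 bp (KO-2). How many genes differ in width between the genotypes in this way was not counted, and the difference was not tested. In WT-1 the score was 83.84 (percentile 3.83%, with 96.2% of the list above it). The other 3 lists gave it the score 3100, which 785 peaks of WT-2, 998 of KO-1 and 1252 of KO-2 had, and 0.942%, 0.564% and 0.733% of those lists stood above it. The exon 7 peak was near the bottom of WT-1 and in the tied group at the top of the other lists, the widest difference between lists among the member peaks. Since the borders differ, the scores of different lists do not refer to the same bases.

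**Figure D2:**
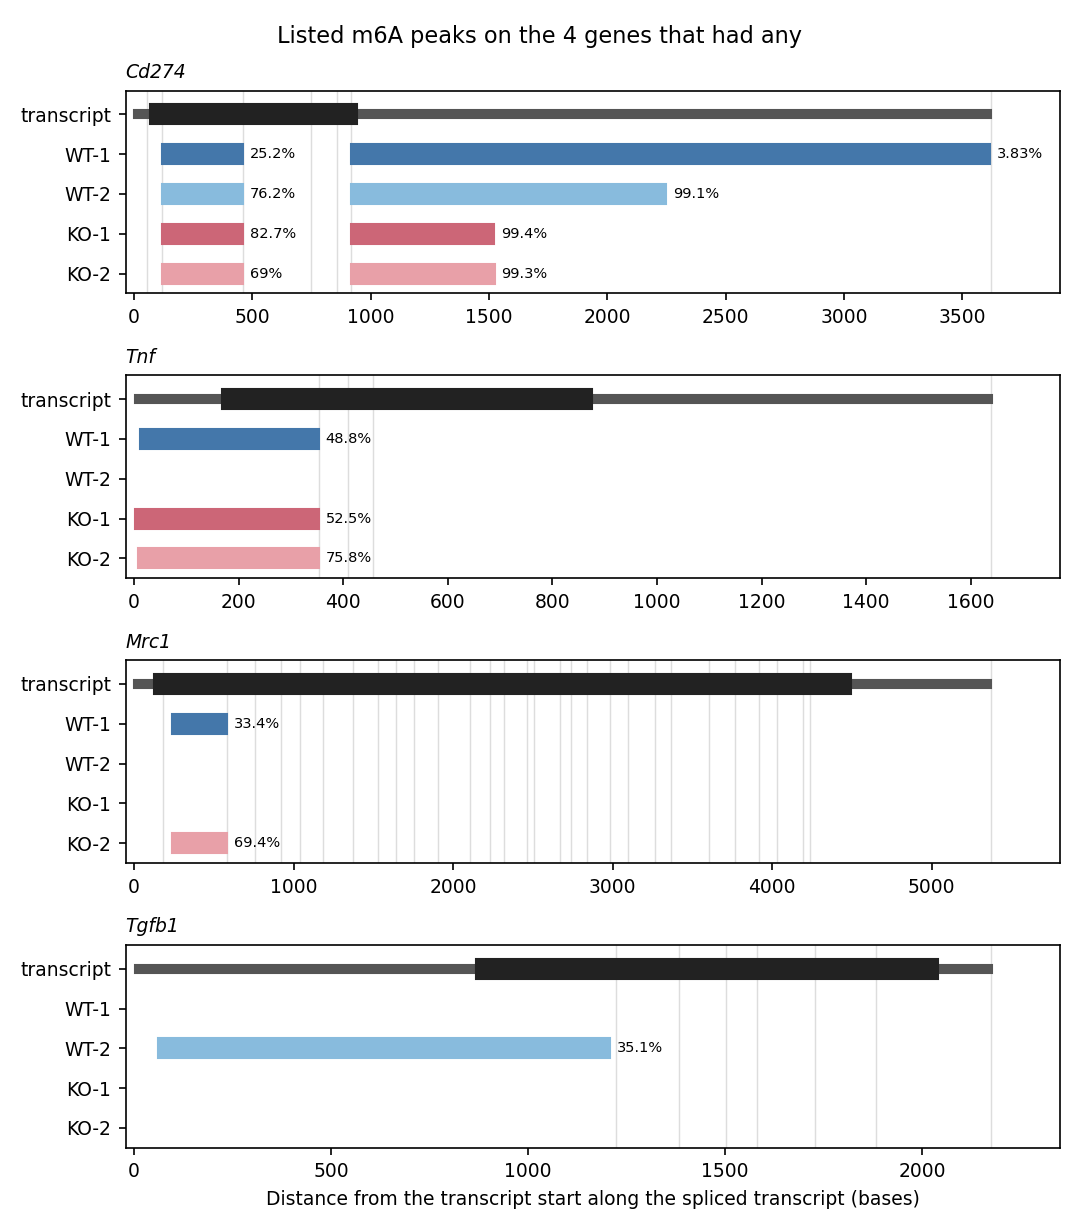
Listed peaks (coloured bars, 1 row per list, score percentile beside each bar) along the spliced longest coding transcript of *Cd274*, *Tnf*, *Mrc1* and *Tgfb1*, with distance from the transcript start in bases. Thick black marks the CDS, thin grey the UTRs, and pale lines the exon borders. The *Cd274* peak over the stop codon runs to 2701 bp in WT-1 and 1331 bp in WT-2 and stops after 604 and 608 bp in the KO lists. Its exon 3 peak has the same borders in all 4 lists but different percentiles.

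*Tnf* (ENSMUSG00000024401.14, chr17:35199381-35202007, 4 exons, 1639 bases) encodes the cytokine TNF-α. Its exon 1 carried a peak in WT-1 (35201655-35201996, 342 bp), KO-1 (35201655-35202007, 353 bp) and KO-2 (35201655-35202001, 347 bp), and WT-2 had no listed peak. These peaks covered the start codon, with 156 to 167 bases of 5′-UTR and 186 coding bases. The score was 489.6 in WT-1 (percentile 48.8%), 662.51 in KO-1 (52.5%) and 2366.41 in KO-2 (75.8%). The values of WT-1 and KO-1 lay close together, so the difference between the genotypes came mostly from WT-2 and KO-2. With absence set to 0, the mean was 24.4 ± 34.5 in WT and 64.1 ± 16.5 in KO BMDMs (SD, n = 2 each), and the difference of 39.7 points gave p = 0.333, the lowest attainable, in a two-sided exact permutation test. Exon 4, with 1183 bp and 7 GGAC motifs the longest exon of *Tnf*, had no listed peak.

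By the best peak of each list, whichever exon it lay on, the percentiles of both KO lists were above those of both WT lists for 2 of the 4 genes with a peak, *Tnf* and *Cd274*, and the reverse order was seen for 0. Over all 7055 genes with a peak, KO was above WT in this way for 15% and WT above KO for 9.51%. The shared score 3100 has a slightly different percentile in each list, and with it counted as a tie, these shares were 13.6% and 9.44% and the order held for *Tnf* alone. For *Cd274* the best peak was that of exon 3 in WT-1 and that of exon 7 in the other lists, and the best peak of WT-2 (99.1%) had the same score as those of KO-1 (99.4%) and KO-2 (99.3%). On the exon 3 peak with its identical borders the genotypes overlapped, since WT-2 (76.2%) was above KO-2 (69.0%). The best percentile of *Cd274* was 62.1 ± 52.2 in WT and 99.4 ± 0.119 in KO BMDMs (SD, n = 2 each; two-sided exact permutation test, p = 0.333). Since WT-2, KO-1 and KO-2 shared the score 3100, this p and the KO SD rest on how the tied score ranked in each list. Across the 9 tests of peak number and percentile run on the 4 genes, every p adjusted by Benjamini-Hochberg was 1.

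*Mrc1* (ENSMUSG00000026712.3, chr2:14229392-14332057, 30 exons, 5374 bases) encodes a scavenger receptor widely used as an M2 surface marker. Exon 2 carried a peak in WT-1 (14238179-14238527, 349 bp) and KO-2 (14238181-14238527, 347 bp), and no listed peak in WT-2 and KO-1. The score was 301.45 in WT-1 (percentile 33.4%) and 1740.47 in KO-2 (69.4%). Presence was thus split within each genotype, with 1 of 2 lists on either side. The peaks ended with the exon and covered 86.8% and 86.3% of it. Exon 30, of 1136 bp with the stop codon, had no listed peak.

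*Tgfb1* (ENSMUSG00000002603.15, chr7:25687002-25705077, 7 exons, 2175 bases) encodes TGF-β1, an immunosuppressive cytokine secreted in latent form. It had a single peak, in WT-2 (25687062-25688208, 1147 bp), with the score 433.66 (percentile 35.1%). The peak lay on exon 1 and covered 807 bases of 5′-UTR and 340 coding bases, including the start codon. WT-1, KO-1 and KO-2 had no listed peak. The *Tgfb1* transcript had 7.82 GGAC motifs per kb, the highest density among the 10 genes, which ranged from 2.99 in *Il6* upwards.

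The 6 genes without a listed peak span both ends of the range. Those of the M1 side were *Il1b* (ENSMUSG00000027398.13, chr2:129364570-129371139), *Il6* (ENSMUSG00000025746.11, chr5:30013114-30019981) and *Nos2* (ENSMUSG00000020826.8, chr11:78920787-78960254). Those of the M2 side were *Il10* (ENSMUSG00000016529.5, chr1:131019845-131024974), *Arg1* (ENSMUSG00000019987.9, chr10:24915221-24927484) and *Ccl22* (ENSMUSG00000031779.3, chr8:94745590-94751699). Each had 0 peaks in every list, also when introns and the opposite strand were included. Their transcripts all held the motif, with 9 GGAC in *Il1b*, 7 in *Il6*, 7 in *Il10*, 18 in *Nos2*, 6 in *Arg1* and 8 in *Ccl22*. The median density was 4.18 GGAC per kb over these 6 and 5.07 over the 4 with a peak. Over all genes the medians were 3.9 without and 4 with a peak, so motif density separated the groups little. By count the groups differed more, with a median of 7.5 GGAC over the 6 genes and 14.5 over the 4. Over all genes the median count was 9 without and 15 with a peak. Transcripts of all genes with a peak were also longer, with a median of 3728 bases against 2213.5. Whether motif count or length goes with these calls was not tested.

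The position of the member peaks was compared with that of all peaks. Midpoints lay in the CDS for 9 of the 14 member peaks, in the 3′-UTR for 4 and in the 5′-UTR for 1. In the whole lists, 44.2% to 50.6% of the peaks that could be placed on the longest coding transcript had their midpoint in the CDS and 44.8% to 52.5% in the 3′-UTR. The start codon was covered by 4 of the 14 peaks, those of *Tnf* and *Tgfb1*, beside 7.49% to 9.8% of all placed peaks. The stop codon was covered by 4 of 14, all on *Cd274*, beside 35.0% to 38.3%. These 14 peaks lie on 5 exons of 4 genes and are not independent, so the counts describe them and were not tested. GGAC was present in 12 of 14, all but those of *Mrc1*, beside 87.6% to 88.9% of all placed peaks, and DRACH was present in 14 of 14, beside 99.9%. Among placed peaks of 340 to 360 bases, the length of the *Mrc1*, *Tnf* and *Cd274* exon 3 peaks, 76.1% to 78.9% had a GGAC.

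Exon length went along with the presence of a peak. The shortest listed peak was 300 bp in every list, about 96% of the assigned peaks (95.8% to 96.4%) lay inside 1 exon block, and 43.5% to 52% had an end at an exon border. In genes with a peak, 66% of exons of at least 300 bp had one, against 1.11% of shorter exons. Among *Cd274*, *Tnf*, *Mrc1* and *Tgfb1* the counts were 5 of 7 and 0 of 41. The limit of 300 bp equals the shortest listed peak, so both contrasts were largely fixed in advance. A peak that lies inside 1 exon needs an exon of at least 300 bp. The 3 genes with 2 such exons, *Tnf*, *Mrc1* and *Cd274*, all had a peak. Of the 7 with 1, *Tgfb1* alone did, and in *Il1b* (669 bp), *Il6* (1977 bp), *Il10* (799 bp), *Nos2* (601 bp), *Arg1* (559 bp) and *Ccl22* (1895 bp) that exon was the last, with 1 to 6 GGAC motifs. Over all genes with a coding transcript, a peak was listed for 1.48% of those with 0 such exons, 27.4% with 1, 39.7% with 2 and 52% with 3 or more. The low share at 0 was largely fixed in advance by the same limit. Spliced length moved the same way, from 17.6% of genes of 1000 to 2000 bases, where *Tnf* was 1 of 4 members with a peak, to 52.2% above 4000 bases, where *Mrc1* was 1 of 2. How far exon length and RNA level set these calls was not tested.

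**Figure D3:**
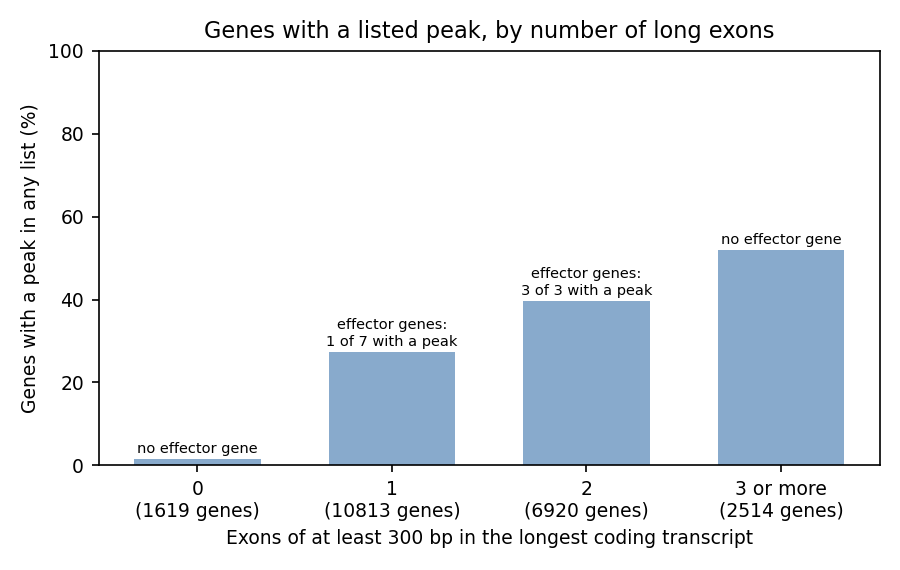
Percentage of protein-coding genes with a peak in any list (bars, linear axis from 0), by the number of exons of at least 300 bp in the longest coding transcript, with the 10 effector genes counted above the bars. The share rises from 1.48% to 52%, and the effector genes had a peak in 1 of 7 with 1 long exon and 3 of 3 with 2. The limit of 300 bp equals the shortest listed peak, so the low first bar was largely fixed in advance.

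The wider M1 and M2 programmes were read from lists of related genes. Of 24 M1 genes, 9 had a peak in any list (37.5%), and of 23 M2 genes 10 had one (43.5%), beside the 32.1% of all genes. In the M1 list, *Cd86*, which encodes a costimulatory ligand of T cells, and *Gbp5*, an interferon-induced GTPase, had a peak in all 4 lists. The best *Cd86* peak stood at 67.2% and 63.6% in the WT lists and at 28.9% and 18.2% in the KO lists (replicate 1, then 2). The WT-2 value is that of a peak on exon 3 listed there alone, and the exon 8 peak behind the other 3 values stood at 35.0% in WT-2, close to the 28.9% of KO-1. Best percentiles of both WT lists above both KO lists were seen for 9.51% of all genes with a peak. *Gbp5* had 63.8%, 42.2%, 27.4% and 44.8% in the same order, and its genotypes overlapped. *Ptgs2*, which encodes cyclooxygenase 2, had a peak in both KO lists and neither WT list, a call that 4.88% of all genes with a peak received. It stood low in both, at 14.8% in KO-1 and 10.8% in KO-2. Like *Il1b* and *Il6*, the cytokine genes *Il12a*, *Il12b*, *Il23a* and *Il1a* had no listed peak.

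In the M2 list, *Msr1*, a scavenger receptor, *Il4ra*, the receptor chain for IL-4, and *Vegfa*, the angiogenic growth factor, had a peak in all 4 lists. *Il4ra* had best percentiles of 30.3% and 44.3% in the WT lists against 78.5% and 99.3% in the KO lists. Its peaks were 1361 and 2597 bp wide in WT and 3123 and 3603 bp in KO, so the percentiles do not refer to the same bases. The KO-2 value is that of the shared score 3100. Both KO lists stood above both WT lists for 15% of all genes with a peak, and the reverse held for 9.51%. *Msr1* had 99.7%, 77.8%, 99.4% and 99.3%, and *Vegfa* 81.5%, 99.1%, 99.4% and 100%. The M2 genes *Retnla*, *Chil3*, *Ccl17* and *Ccl24* had none, as for *Arg1* and *Ccl22*. No M2 gene was called for a genotype, beside 3.84% (both WT lists) and 4.88% (both KO lists) of all genes with a peak.

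Among the receptors and processing factors of the member cytokines, 13 of 21 genes (61.9%) had a peak in any list and 6 (28.6%, beside 9.78% of all genes) in all 4. The 6 were *Tnfrsf1b*, a TNF receptor, *Il1r1*, the IL-1 receptor, *Nlrp3*, the inflammasome sensor upstream of IL-1β release, *Il6ra* and *Il6st*, the chains of the IL-6 receptor, and *Il10ra*, the IL-10 receptor chain. *Il6* and *Il10* thus had no listed peak while a receptor gene of each had one in every list. *Tnfrsf1b* stood at 67.7% in WT-1 and at the tied top score in the other lists (99.1% to 99.4%), so that WT-1 was lowest, as for *Cd274*. *Il10ra* stood at 78.9% and 99.1% in WT-1 and WT-2 and at 58.4% and 34.7% in KO-1 and KO-2, and *Il1r1* at 6.93%, 10.0%, 69.6% and 34.7%. These peaks differ in their borders, so the percentiles do not refer to the same bases. In the same order, the best *Il1r1* peaks were 697, 431, 874 and 1481 bp wide, and those of *Il10ra* 1480, 2605, 1573 and 2605 bp. By best percentile, *Il10ra* had both WT lists above both KO lists, as 9.51% of all genes with a peak did. *Il1r1* had the reverse order, as 15% did. *Pdcd1*, which encodes the PD-1 receptor that binds the product of *Cd274*, had a peak in KO-2 alone, at 4.28%. The length of these genes was not held equal, and whether the lists differ from each other was not tested. Of 12 genes of arginine and nitric oxide metabolism, 5 had a peak (41.7%) and 0 in all 4 lists. *Slc7a1*, an arginine transporter, had one in 3 lists, at 57.0% in WT-1, 39.7% in KO-1 and 99.3% in KO-2. *Sms*, which encodes spermine synthase, also had one in 3 lists, at 84.9% in WT-1, 47.8% in WT-2 and 8.2% in KO-1. KO-2 had no listed peak on *Sms*. With absence set to 0, both WT lists were above both KO lists, an order seen for 9.51% of all genes with a peak. *Slc7a2*, another arginine transporter, had a peak in WT-1 alone (39.9%), and *Asl* (33.0%) and *Oat* (28.9%) in KO-2 alone.

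**Figure D4:**
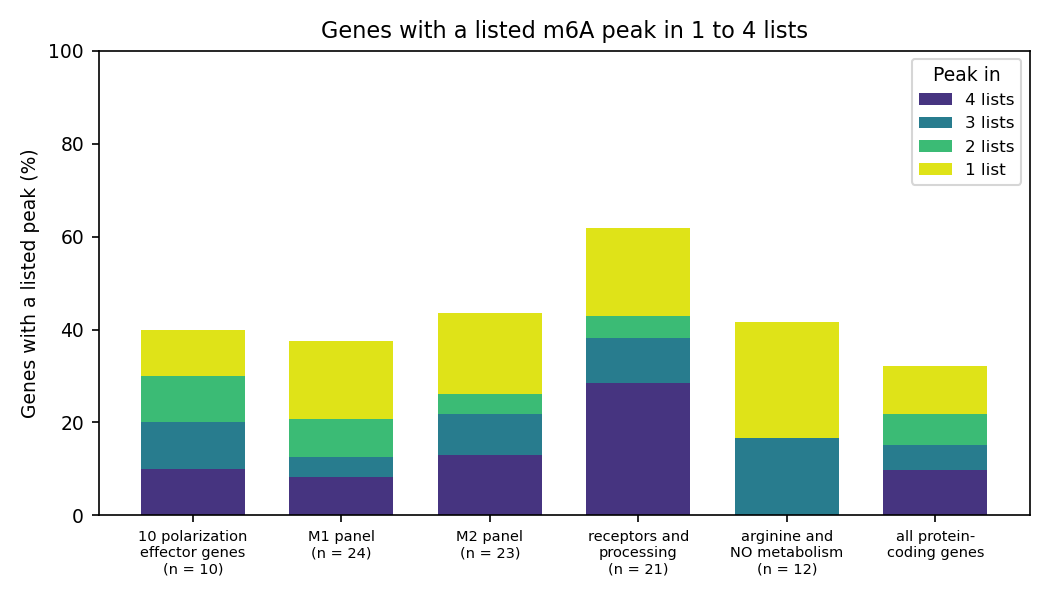
Percentage of genes with a listed peak in 4, 3, 2 or 1 of the 4 lists (stacked bars, linear axis from 0) for the 10 effector genes, the 4 related gene lists and all 21951 protein-coding genes. The effector genes reach 40% and all genes 32.1%, while the receptor and processing genes reach 61.9%.

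The genes whose best percentiles over the 4 lists were closest to those of a member, by Euclidean distance in percentile points with absence at 0, were named for the 3 members with a peak in at least 2 lists. For *Cd274* these were *Smcr8* (1.2 points), *1600012H06Rik* (2 points) and *Inip* (7.05 points), all at the same percentiles as *Cd274* in every list but WT-1. For *Tnf* they were *Zfyve9* (8.05), *Scaf1* (9.77) and *Sgo2a* (10.1). For *Mrc1* they were *Uqcc3* (4.31), *Trmt10c* (6.02) and *Ago3* (6.25). With 4 lists and tied scores, such likeness is a description of these lists only.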

How the data were processed

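The authors trimmed reads with cutadapt 1.9.3 and aligned them with HISAT2 2.0.4 to mm10, per the labels, and called peaks in each sample without pooling. The peak caller, its version and its threshold are not given in the sources used here. The deposited score of each peak has no stated normalization and was ranked within its list only. RNA libraries were strand-specific. Here, peaks were assigned to the protein-coding gene with the largest same-strand exon overlap (at least 1 bp, GENCODE M21, GRCm38), after 1 was added to the 0-based starts. Positions and motifs were read on the longest coding transcript. The number of peaks and the percentile were compared by two-sided exact permutation tests over 6 labellings. The lists hold no counts, so depth and counting error are unknown, and p-values measure only the spread between these samples.

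The members and gene lists were chosen with earlier results of these data known. Named were the 10 genes, *Mettl3*, related genes with a peak in all 4 lists or in a single genotype, and the 3 nearest genes. Other genes were named after their values were seen. *Cxcl11* and *Clec7a* are no protein-coding genes in this annotation and were left out, and the result for 1 marker is not reported here. Alternatives covered scores, assignment, overlap, motifs, a replicate block and each list left out. On simulated data, peaks planted inside the longest exon of 2000 genes, where no other same-strand coding gene overlapped, were recovered for 100%. This checks the assignment in clear cases only, and neither peak calling nor overlapping genes. Python 3.11.15, numpy 2.4.6, scipy 1.17.1 and matplotlib 3.10.9 were used.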

Additional observations from a re-analysis of the deposited data

How the results depend on the processing

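Of 88 summary values under alternatives, 48 were identical to the reported ones, 15 changed within a tolerance (1.5 times for counts, 1 SD for the difference in member peaks, the Wilson 95% interval for shares) and 25 moved past it. For single genes, 46 of 50 were identical, 2 changed within 1.5 times (*Tnf* from 3 to 2 lists and *Cd274* from 4 to 3) and 2 moved. Within the tolerance, leaving out a list took the difference in member peaks from 0 to between -0.5 and 0.5, the related genes with any peak from 37 to as few as 29 and those in all lists from 11 to as many as 15. When only the upper 50% of scores in each list were used, which shortens the lists by construction, 0 of the 10 genes had a peak in all 4 lists (*Cd274* lost WT-1), 1 was called for KO (*Tnf*, whose WT-1 peak at 48.8% drops out), *Tgfb1* had a peak in 0 lists and *Mrc1* in 1, and the member peaks per list were 2.5 higher in KO (main value 0). The related genes then numbered 24 with any peak, 6 in all lists and 1 called for WT, and top-scoring peaks taken to the length of the shortest list also gave 1 for WT. With each list left out in turn, the genes with a peak in all lists ranged from 1 to 2 (*Tnf* and *Cd274* without WT-2), those called for WT from 0 to 1 (*Tgfb1* without WT-1) and for KO from 0 to 1 (*Tnf* without WT-1), and the related genes from 0 to 4 for WT and from 2 to 9 for KO. Same-numbered samples did not deviate together in peak presence (r = -0.00301 over 7055 genes). This value cannot decide whether they were handled together, which was not tested. With a replicate block needing only 1 same-numbered pair, which is a looser rule, 2 of the 10 genes were called for WT and 2 for KO. These were *Mrc1* and *Tgfb1* for WT and *Mrc1* and *Tnf* for KO, so *Mrc1* was called in both directions. Of the related genes, 8 were called for WT and 15 for KO. The share of all genes called under this rule was not computed, so these counts have no background beside them. The paired difference in member peaks was 0. The CDS share was 32.2% by bases in place of 64.3% by midpoints. GGAC was in 85.7% of member peaks, DRACH in 100% and GGAC in the central 200 bp in 35.7%. The cause of these shifts was not tested further. With the shared score counted as a tie, an alternative chosen after seeing the data, 1 gene in place of 2 had both KO lists above both WT lists. With 2 samples per genotype and no counts, neither depth nor RNA level can be set beside any absence.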
